A study of Mus musculus with 12 samples.

Results

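The genes described here are 36 genes of glucose and lactate transport, glycolysis, the pentose phosphate pathway and glycogen metabolism, chosen by symbol for their known place in these pathways. All 36 symbols were found among 13715 genes measured by RNA-seq, and they held 37 entries because Aldoa names 2 of them. The cells were mouse macrophages derived from bone marrow, cultured 7 days in M-CSF (40 ng/ml), a cytokine that drives macrophage growth. The 4 groups of 3 libraries were LysMCre Stk11 fl/fl cells (KO) given 20 ng/ml IL-4 for 24 h, WT cells given the same IL-4, KO cells left unstimulated (mock) and WT mock cells. LysMCre places Cre recombinase in the lysozyme M gene, Lyz2, so the floxed Stk11 alleles are cut in myeloid cells. Stk11 encodes the kinase LKB1, an activator of AMPK. IL-4 is the cytokine of alternative macrophage activation, and the sources used here do not say whether the WT mice carried Cre or whether samples of a group came from separate mice.

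Glycolysis splits glucose into pyruvate in a hexose phase that spends ATP and a triose phase that makes ATP and NADH, and lactate dehydrogenase then turns pyruvate into lactate. Glucose phosphate can instead enter the pentose phosphate pathway, whose oxidative branch makes NADPH and whose non-oxidative branch rebuilds sugars, or it can be stored as glycogen. Macrophages are known to change the use of these routes with activation, and AMPK is known as a sensor of low energy that acts on several of them.

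Transcript levels are given as CPM, counts scaled to a fixed library size with TMM factors, and a gene was called at an adjusted p under 0.05 in edgeR's quasi-likelihood test, with Benjamini-Hochberg adjustment across the 13715 genes. Libraries held 30651627 to 39136822 counts, and the chosen genes took 1.16% to 1.42% of them. Stk11 fell in KO mock cells (log2 fold change -2.84, adjusted p = 3.85e-06) and in KO cells given IL-4 (log2 fold change -2.55, adjusted p = 8.99e-06). Lyz2, where Cre sits, was at 43.1 to 43.4 CPM in both KO 2 libraries and at 15362 to 21618 CPM in the other KO libraries, against 28471 to 44637 CPM in WT. The count of called entries of the chosen genes in each comparison is therefore also given without both KO 2 libraries. Counts by role, of markers and of other pathway genes are given with all libraries only. All 8 macrophage markers were found. In KO mock Csf1r (log2 fold change -0.39), Adgre1 (-0.44) and Itgam (-0.79) were lower and Cd68 (0.21) higher, and in KO with IL-4 Itgam (-0.46) was lower and Mertk (0.65) higher, while the others were not called. None of the 6 lymphoid markers was among the 13715 genes, so their levels are not known. Of the other lists 11 of 12 neutrophil, 4 of 11 erythroid and megakaryocyte, 1 of 5 dendritic and 3 of 7 fibroblast and endothelial markers were found. No dendritic, fibroblast or endothelial marker was called between KO and WT in mock or with IL-4. Of 11 neutrophil markers 9 were higher and 1 lower in KO mock, and their summed level was 722 to 1228 CPM in KO mock against 406 to 552 CPM in WT mock, and 567 to 996 CPM in KO with IL-4 against 310 to 434 CPM in WT with IL-4. The summed level of 4 erythroid and megakaryocyte markers, nearly all of it Pf4, was 575 to 646 CPM in KO mock against 39.9 to 57.9 CPM in WT mock, and 513 to 601 CPM in KO with IL-4 against 41.2 to 63.8 CPM in WT with IL-4, with Klf1, Ppbp and Itga2b each averaging under 1 CPM in every group. Whether cells of these other types were present, and their part in the differences between KO and WT below, was not tested. In such bulk libraries fewer cells of a type and less RNA per cell cannot be told apart.

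Promoter sequences are shown for 4 of the genes called in KO mock cells, 3 that were higher (Ldha, Pgk1 and Slc16a3) and 1 that was lower (Hk2). Each is a 300-base window around a transcription start from RefSeq on build GRCm38.p6, written on the strand of the gene, and capitals mark ACGTG or its reverse complement CACGT, the core of the hypoxia response element.
Ldha, chr7:46845554-46845853, plus strand: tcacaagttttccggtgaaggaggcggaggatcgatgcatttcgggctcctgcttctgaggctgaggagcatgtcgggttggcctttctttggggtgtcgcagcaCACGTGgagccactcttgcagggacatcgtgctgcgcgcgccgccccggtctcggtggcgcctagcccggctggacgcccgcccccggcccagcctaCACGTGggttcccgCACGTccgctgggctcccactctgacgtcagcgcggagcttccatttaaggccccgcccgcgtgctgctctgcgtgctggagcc
Pgk1, chrX:106186850-106187149, plus strand: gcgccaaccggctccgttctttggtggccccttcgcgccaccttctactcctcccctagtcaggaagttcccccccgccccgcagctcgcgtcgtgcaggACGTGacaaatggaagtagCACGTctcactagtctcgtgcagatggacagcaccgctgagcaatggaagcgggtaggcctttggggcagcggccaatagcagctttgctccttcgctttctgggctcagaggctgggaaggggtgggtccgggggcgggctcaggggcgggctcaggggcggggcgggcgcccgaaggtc
Slc16a3, chr11:120948817-120949116, plus strand: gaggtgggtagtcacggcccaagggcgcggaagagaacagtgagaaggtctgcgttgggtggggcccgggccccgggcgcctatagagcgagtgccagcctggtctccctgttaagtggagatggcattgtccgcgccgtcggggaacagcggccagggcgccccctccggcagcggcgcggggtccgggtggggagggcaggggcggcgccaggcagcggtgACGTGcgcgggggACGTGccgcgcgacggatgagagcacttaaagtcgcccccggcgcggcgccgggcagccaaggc
Hk2, chr6:82774405-82774704, minus strand: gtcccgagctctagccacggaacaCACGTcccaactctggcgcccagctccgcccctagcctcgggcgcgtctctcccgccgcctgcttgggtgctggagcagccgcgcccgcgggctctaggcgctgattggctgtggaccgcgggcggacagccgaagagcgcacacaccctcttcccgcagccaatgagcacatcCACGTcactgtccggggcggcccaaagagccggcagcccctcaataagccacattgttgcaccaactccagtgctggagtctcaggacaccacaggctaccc
The Ldha window held 5 matches and the others 2 each. The matches were counted on both strands, so a CACGTG, the E-box, counts as 2 matches of ACGTG, and the Ldha window held 2 E-boxes and also the cyclic AMP response element TGACGTCA. Of the 36 genes 19 (52.8%) had ACGTG in at least 1 of their windows, against 5886 of 27025 genes (21.8%) in the whole promoter table. By window it was 22 of 50 (44%) against 6447 of 32851 (19.6%). The whole table holds more genes than the 13715 measured here and was not matched for expression, base composition or number of windows. Enrichment was therefore not tested. The E-box CACGTG stood in 8.33% of the 36 genes against 8.09% of all, TGACGTCA in 2.78% against 2.03%, and the antioxidant response element TGACNNNGC in 13.9% against 14%. By their KO mock result, ACGTG stood in 8 of the 14 genes that were higher, in 2 of 2 that were lower and in 9 of 20 that were not called. The windows of Eno1, Pfkl, Gbe1, Taldo1 and Tpi1, which were also higher in KO mock, held no match of these 4 motifs. The 4 genes shown all hold ACGTG, so they do not stand for all the genes that were called.

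Levels spanned a wide range when set per kilobase of the principal transcript. Aldoa, the main fructose bisphosphate aldolase, was the most abundant in all 4 groups, at 1444 ± 52.1 CPM per kb in KO with IL-4, 1435 ± 117 in WT with IL-4, 1555 ± 28.7 in KO mock and 1224 ± 24.3 in WT mock (mean ± SD, n = 3 each). Pkm (pyruvate kinase), Gapdh, Ldha, Taldo1 (transaldolase) and Eno1 (enolase) took the next places in WT mock, where the ranges of Gapdh and Ldha overlapped, as did those of Ldha and Taldo1. In the order of levels 13 of 36 neighbouring pairs overlapped in KO mock and 16 of 36 in WT mock, so the places of close neighbours carry little. Among the hexokinases Hk3 led, at 168 ± 10.4 CPM per kb in WT mock, with Hk1 at 28.5 ± 1.69 and Hk2 at 6.61 ± 0.485. Pfkm, Bpgm, Tigar and Rpia had the lowest levels apart from the other Aldoa entry, a gene (chr7:126800790-126809108, mm10) next to Aldoa that held 72 counts in all 12 libraries and never exceeded 0.346 CPM. The summed CPM of the 24 transport and glycolysis entries was 8926 to 11434 over the libraries and that of the 5 glycogen genes 243 to 381. These 5 are the genes grouped with glycogen here, Pgm2, Ugp2, Gys1, Gbe1 and Pygl, and the sugar phosphate mutase Pgm2 counts in each tally of them.

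**Figure D1:**
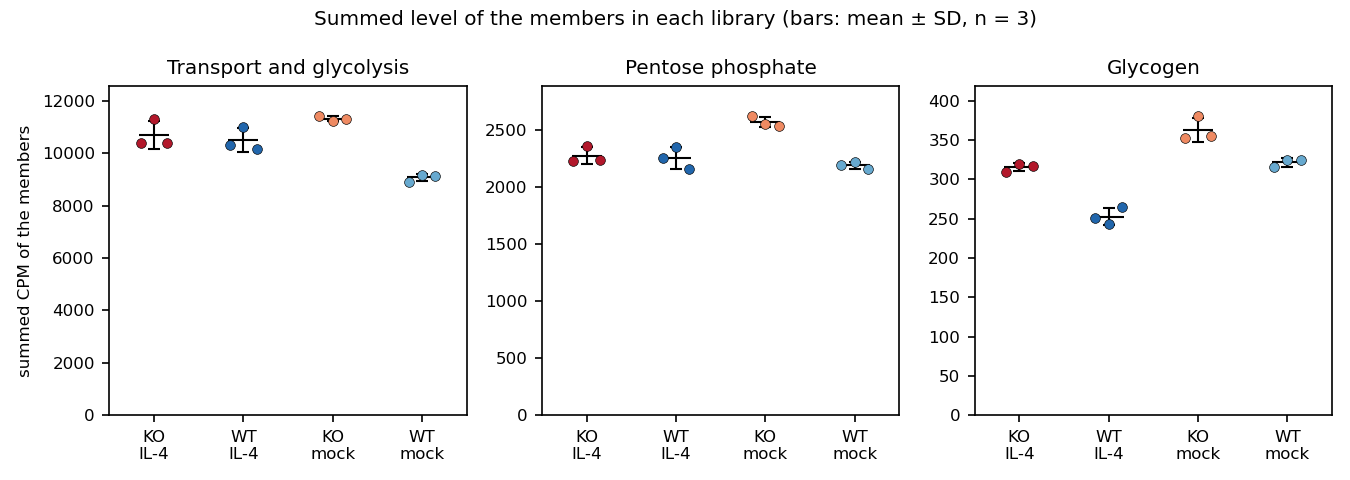
Summed CPM of the chosen genes in each library, for transport and glycolysis, the pentose phosphate pathway and glycogen metabolism. Points are libraries and black bars the mean ± SD of 3. In glycolysis the KO mock libraries lie at 11248 to 11434 CPM and the WT mock libraries at 8926 to 9183 CPM, while the IL-4 groups overlap.

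Unstimulated KO cells had more transcript of Ldha, Pkm, Pgk1 and Eno1, which act late in glycolysis, and less of Hk2. Against WT mock, 14 of 37 entries rose and 3 fell (45.9% called), where 34.5% of all genes were called, 15.7% higher and 18.8% lower. In 16 entries every KO mock library was above every WT mock library and in 4 every one was below, where 22.7% and 25% of all genes were so separated (47.7% in all). The median log2 fold change of the 37 entries was 0.12, against -0.02 over all genes. Without both KO 2 libraries 13 entries rose and 1 fell, where 29.1% of all genes were called. Of the triose phase and lactate genes 4 of 8 rose and none fell, and all 8 had a fold change above 0. In the hexose phase 5 of 14 entries rose and 3 fell. In the pentose phosphate pathway 2 of 8 genes rose, and among glycogen genes 2 of 5 rose. Of 17 other glycogen genes outside the chosen set 1 rose and 4 fell (29.4% called, median -0.21).

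Ldha, which makes lactate from pyruvate (chr7:46841475-46855627), had 1502, 1552 and 1510 CPM in KO mock libraries, against 1009, 1096 and 1029 CPM in WT mock libraries. The log2 fold change was 0.54 (SE 0.06, adjusted p = 3.87e-05), and no KO value was as low as any WT value. Pkm, the pyruvate kinase gene (chr9:59656368-59679375), had 2904, 2892 and 2847 CPM in KO mock, against 2040, 2029 and 2221 CPM in WT mock (log2 fold change 0.46, SE 0.07, adjusted p = 0.000171). All KO libraries lay above all WT libraries. Pgk1, the first ATP-making enzyme of the triose phase, had 125, 130 and 128 CPM in KO mock, against 95.6, 98.6 and 95.3 CPM in WT mock (log2 fold change 0.40, SE 0.06, adjusted p = 0.000309). Eno1, which makes phosphoenolpyruvate, had 1280, 1181 and 1180 CPM in KO mock, against 896, 946 and 950 CPM in WT mock (log2 fold change 0.38, SE 0.06, adjusted p = 0.000395). Both were separated between the genotypes in every library. The other 4 genes of the triose phase and lactate group were not called. Gapdh averaged 1017 ± 46.3 CPM in KO mock and 912 ± 68.6 CPM in WT mock, a log2 fold change of 0.16 (95% interval -0.03 to 0.34). Pgam1, Bpgm and Ldhb had log2 fold changes of 0.00, 0.17 and 0.06.

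Phosphofructokinase, which commits sugar to glycolysis, is encoded by 3 of the genes. Pfkl, the liver-type phosphofructokinase (chr10:77986947-78010083), had 225, 199 and 199 CPM in KO mock, against 143, 143 and 164 CPM in WT mock (log2 fold change 0.47, SE 0.08, adjusted p = 0.000521). Pfkp, the platelet type, had 124, 119 and 126 CPM in KO mock, against 118, 120 and 123 CPM in WT mock, and the log2 fold change was 0.03 (95% interval -0.11 to 0.18). The Pfkl groups did not overlap and the Pfkp groups did, and a difference between the isoforms was not tested. Pfkp was called under both corrections for length, at 0.41 (adjusted p = 0.00164) with the deposited gene length and at 0.19 (adjusted p = 0.0373) with transcript length and GC. Pfkm, the muscle type, was not called, at -0.29 (adjusted p = 0.0989). Pfkfb3, which makes the activator of phosphofructokinase, rose by 0.46 (SE 0.10), Aldoa by 0.35 (SE 0.07), Tpi1 (triose phosphate isomerase) by 0.23 (SE 0.07) and Adpgk, a glucokinase that uses ADP, by 0.27 (SE 0.10).

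Of the 3 hexokinases, which trap glucose in the cell, Hk2 and Hk3 fell and Hk1 was not called. Hk2 (chr6:82725025-82774454) had 20.9, 23.9 and 24.6 CPM in KO mock, against 34.2, 35.8 and 39.4 CPM in WT mock (log2 fold change -0.66, SE 0.10, adjusted p = 0.000331). Hk3 had 457, 458 and 449 CPM in KO mock, against 522, 496 and 561 CPM in WT mock (log2 fold change -0.21, SE 0.06, adjusted p = 0.0179). Neither gene overlapped between the genotypes, and without both KO 2 libraries Hk3 was not called (adjusted p = 0.0622). Hk1 was at -0.09 (95% interval -0.24 to 0.06). The other Aldoa entry had 0, 0.0829 and 0.151 CPM in KO mock, against 0.288, 0.287 and 0.346 CPM in WT mock (log2 fold change -1.90, SE 0.61, adjusted p = 0.0259), which rests on few reads. Transport differed at the ends of the pathway. Slc16a3, the lactate exporter MCT4, had 67.2, 75.9 and 71.0 CPM in KO mock, against 52.0, 52.9 and 54.3 CPM in WT mock (log2 fold change 0.43, SE 0.08, adjusted p = 0.000896). Slc2a1, the glucose transporter GLUT1, averaged 104 ± 8.99 CPM in KO mock and 104 ± 6.50 CPM in WT mock, with a 95% interval of -0.17 to 0.16 around a log2 fold change of -0.00.

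In the pentose phosphate pathway Taldo1, an enzyme of the non-oxidative branch, had 1142, 1016 and 1004 CPM in KO mock, against 754, 788 and 676 CPM in WT mock (log2 fold change 0.51, SE 0.08, adjusted p = 0.000373). Pgd, phosphogluconate dehydrogenase of the oxidative branch, rose by 0.28 (SE 0.06). G6pdx, the entry enzyme, Tkt (transketolase), H6pd, Pgls, Rpia and Rpe were not called, with log2 fold changes of -0.50 for the rare Rpia and -0.17 to 0.12 for the others. Among glycogen genes Gbe1, the branching enzyme, rose by 0.43 (SE 0.09) and Pgm2, a sugar phosphate mutase, by 0.29 (SE 0.07). Gys1, glycogen synthase, did not pass the test, at -0.03 (95% interval -0.25 to 0.19), and neither did Ugp2, which makes UDP-glucose, or Pygl, glycogen phosphorylase, at 0.14 (adjusted p = 0.1), which was called under the corrections for length below.

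Fold changes of KO against WT in mock ran lower for longer transcripts over all genes (Spearman's rho = -0.357, taken across genes, which are no independent replicates). These entries had a median principal transcript of 2484 bases against 2633 over all genes. The 8 triose phase and lactate genes were all shorter than 2633 bases, at 1304 (Ldhb) to 2432 (Pkm). Of the entries that fell, Hk2 had 5513 and Hk3 3126 bases, and the other Aldoa entry 741. Of those that rose, only Pfkfb3 (4634), Pfkl (3730) and Gbe1 (2846) were longer than 2633 bases. With a transcript length and GC correction 14 entries rose and 3 fell, where 32.7% of all genes were called. Of the 17 calls 15 were shared, those of Ldha, Pkm, Pgk1 and Eno1 among them. That correction brought Hk2 to -0.35 (adjusted p = 0.0031) and Aldoa to 0.19 (adjusted p = 0.00894), and Tpi1 to 0.10 (adjusted p = 0.142) and Adpgk to 0.23 (adjusted p = 0.0605), both no longer called, while Pfkp and Pygl were gained, Pygl at 0.15 (adjusted p = 0.0355). With a correction on the deposited gene length instead, Adpgk was at 0.52, Pfkp at 0.41, Pygl at 0.30 (adjusted p = 0.000985), Tpi1 at 0.15 (adjusted p = 0.0739) and Pgm2 at 0.19 (adjusted p = 0.0502). Leaving out 1 library ended 4 of the 17 calls: Hk3 without WT mock 1, WT mock 3, KO mock 1 or KO mock 3 (adjusted p 0.0531 to 0.119), Adpgk without WT mock 1 or any KO mock library (0.0638 to 0.149), Tpi1 without WT mock 1, KO mock 1 or KO mock 3 (0.0584 to 0.0698) and the other Aldoa entry without WT mock 1, KO mock 1 or KO mock 2 (0.0545 to 0.0794).

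**Figure D2:**
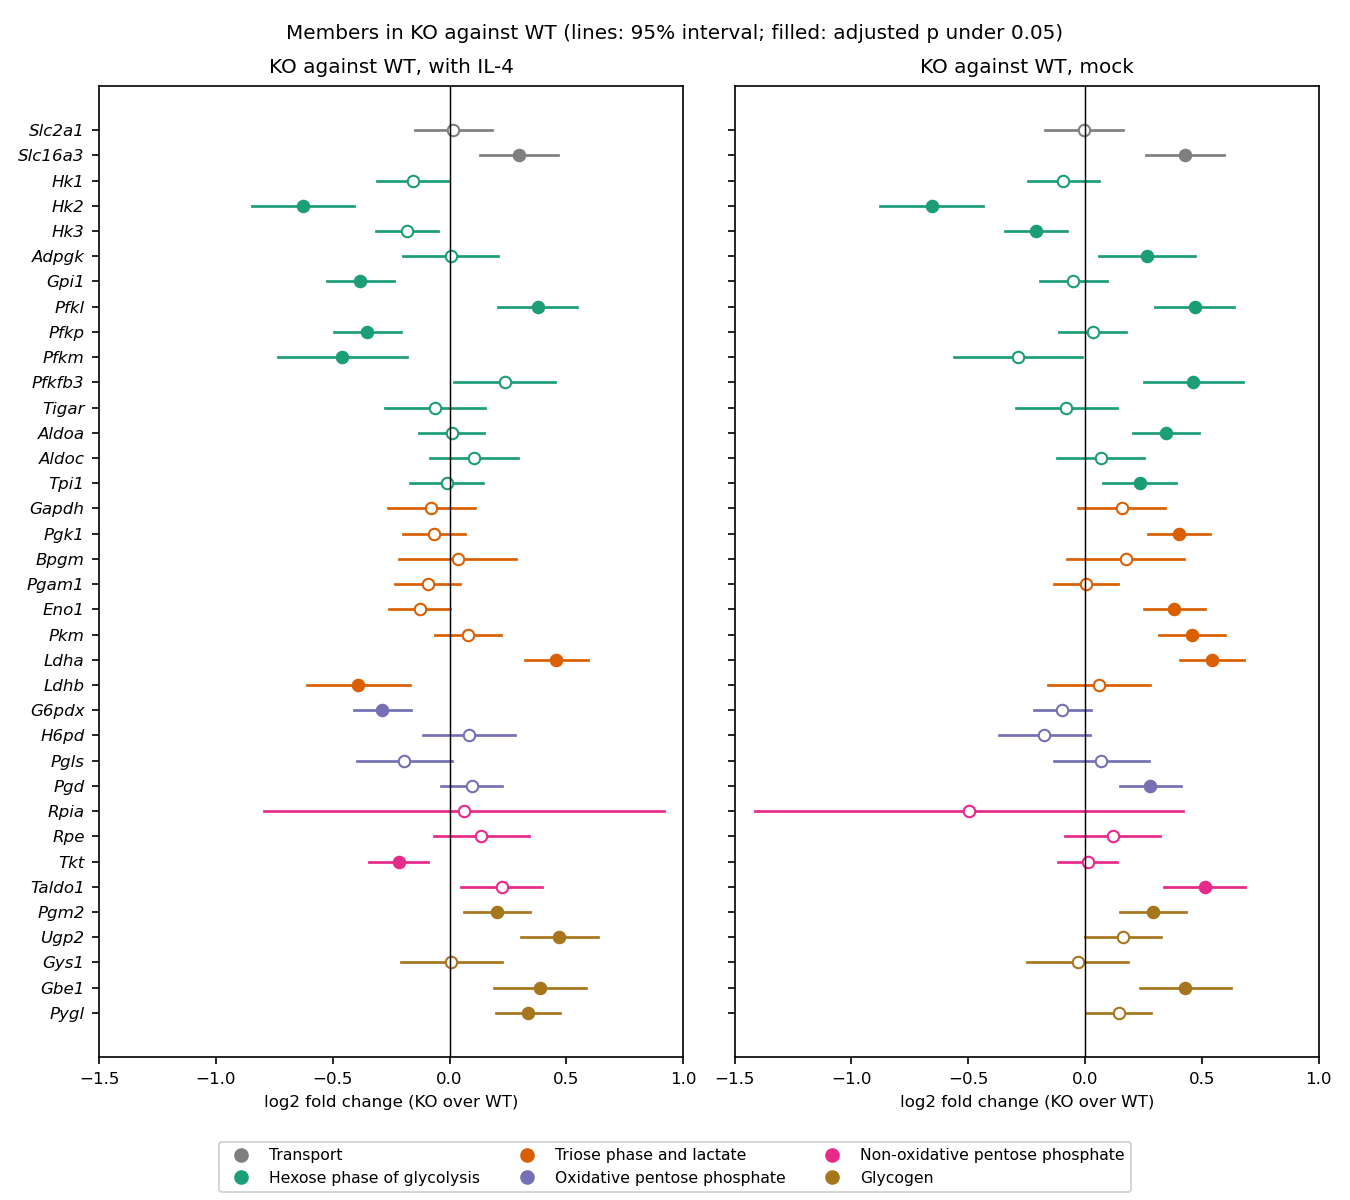
Log2 fold change of KO over WT for 36 genes, with IL-4 on the left and mock on the right, coloured by role; lines are 95% intervals and filled points have an adjusted p under 0.05. The other Aldoa entry is left out because its interval is wide. In mock Ldha, Pkm, Pgk1 and Eno1 lie near 0.38 to 0.54 and Hk2 at -0.66, while with IL-4 Pkm, Pgk1 and Eno1 lie at -0.13 to 0.08 with open points.

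With IL-4 the KO cells had more transcript of Ugp2, Pygl and Gbe1 of glycogen metabolism and of Ldha, and less of Hk2, Gpi1, Pfkp and G6pdx. Against WT with IL-4, 7 of 37 entries rose and 7 fell (37.8% called), where 18.8% of all genes were called, 8.57% higher and 10.2% lower. Every KO library was above every WT library in 9 entries and below in 10, where 17.1% and 18.8% of all genes were so separated (35.9% in all). The median log2 fold change was 0.01 for the entries and -0.01 over all genes. Without both KO 2 libraries 5 entries rose and 5 fell, where 11.7% of all genes were called. Of the 5 glycogen genes 4 rose. Of 17 other glycogen genes outside the chosen set 1 rose, 1 fell and 15 were not called (11.8% called, median -0.02). In the triose phase and lactate group 1 of 8 rose and 1 fell. In the hexose phase 1 of 14 entries rose and 4 fell, and in the pentose phosphate pathway none of 8 genes rose and 2 fell. Of the 14 entries that rose in mock, 5 (Ldha, Pfkl, Slc16a3, Gbe1 and Pgm2) rose with IL-4 too and 9 were not called.

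Ugp2, which makes the glucose donor for glycogen, had 76.6, 76.6 and 79.4 CPM in KO with IL-4, against 54.1, 54.9 and 58.9 CPM in WT with IL-4 (log2 fold change 0.47, SE 0.08, adjusted p = 0.000701). Pygl, which releases glucose from glycogen, had 147, 152 and 147 CPM in KO with IL-4, against 115, 113 and 126 CPM in WT with IL-4 (log2 fold change 0.34, SE 0.06, adjusted p = 0.00223). Gbe1 had 20.2, 21.7 and 21.6 CPM in KO with IL-4, against 16.6, 15 and 16.9 CPM in WT with IL-4 (log2 fold change 0.39, SE 0.09, adjusted p = 0.0085). None of these genes overlapped between the genotypes. Pgm2 passed narrowly at 0.20 (adjusted p = 0.047), but not in 15 of 24 alternative settings, among them both length corrections (0.0585 and 0.0733) and the replicate block (0.0622). Gys1 did not pass, at 0.01 (95% interval -0.21 to 0.22).

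Ldha had 1744, 1939 and 1696 CPM in KO with IL-4, against 1273, 1353 and 1292 CPM in WT with IL-4 (log2 fold change 0.46, SE 0.06, adjusted p = 0.000196). Ldhb, the isoform of heart that favours pyruvate, had 48.4, 42.6 and 46.8 CPM in KO with IL-4, against 60.9, 58.2 and 61.5 CPM in WT with IL-4 (log2 fold change -0.39, SE 0.10, adjusted p = 0.0159). The lactate dehydrogenase isoforms thus differed in opposite directions, each with separate groups. Pfkl and Pfkp did the same at the phosphofructokinase step. Pfkl had 123, 121 and 110 CPM in KO with IL-4, against 84.4, 93.7 and 94.2 CPM in WT with IL-4 (log2 fold change 0.38, SE 0.08, adjusted p = 0.00401). Pfkp had 186, 215 and 207 CPM in KO with IL-4, against 275, 253 and 247 CPM in WT with IL-4 (log2 fold change -0.35, SE 0.07, adjusted p = 0.00202). The muscle type Pfkm, at 7.84 ± 0.352 CPM in KO with IL-4 and 10.7 ± 1.45 CPM in WT with IL-4, fell by 0.46 on the log2 scale.

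Further falls lay at the top of the pathway. Hk2 had 29.1, 32.3 and 30.0 CPM in KO with IL-4, against 54.4, 43.4 and 43.4 CPM in WT with IL-4 (log2 fold change -0.63, SE 0.10, adjusted p = 0.000636). Gpi1, which turns glucose phosphate into fructose phosphate, had 337, 365 and 346 CPM in KO with IL-4, against 453, 488 and 426 CPM in WT with IL-4 (log2 fold change -0.38, SE 0.07, adjusted p = 0.00114). G6pdx, which sends the same substrate into the pentose phosphate pathway, had 275, 288 and 277 CPM in KO with IL-4, against 354, 333 and 337 CPM in WT with IL-4 (log2 fold change -0.29, SE 0.06, adjusted p = 0.00258). All 3 were lower in every KO library than in any WT library. Tkt fell by 0.22 on the log2 scale (SE 0.06, adjusted p = 0.0179), and Slc16a3 rose by 0.30 (SE 0.08, adjusted p = 0.0151). Leaving out 1 library ended 5 of the 14 calls: Slc16a3 and Ldhb without WT IL-4 1 or KO IL-4 2 (adjusted p 0.0653 to 0.0783 and 0.0536 to 0.0766), Tkt without WT IL-4 1, KO IL-4 1 or KO IL-4 3 (0.0629 to 0.12), Pfkm without WT IL-4 1 or any KO IL-4 library (0.0535 to 0.134), and Pgm2 without any of 8 libraries, the exceptions being WT mock 2, WT mock 3, WT IL-4 3 and KO IL-4 1 (0.052 to 0.172). Without WT IL-4 1 alone, 9 entries were called, where 12.1% of all genes were called.

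**Figure D3:**
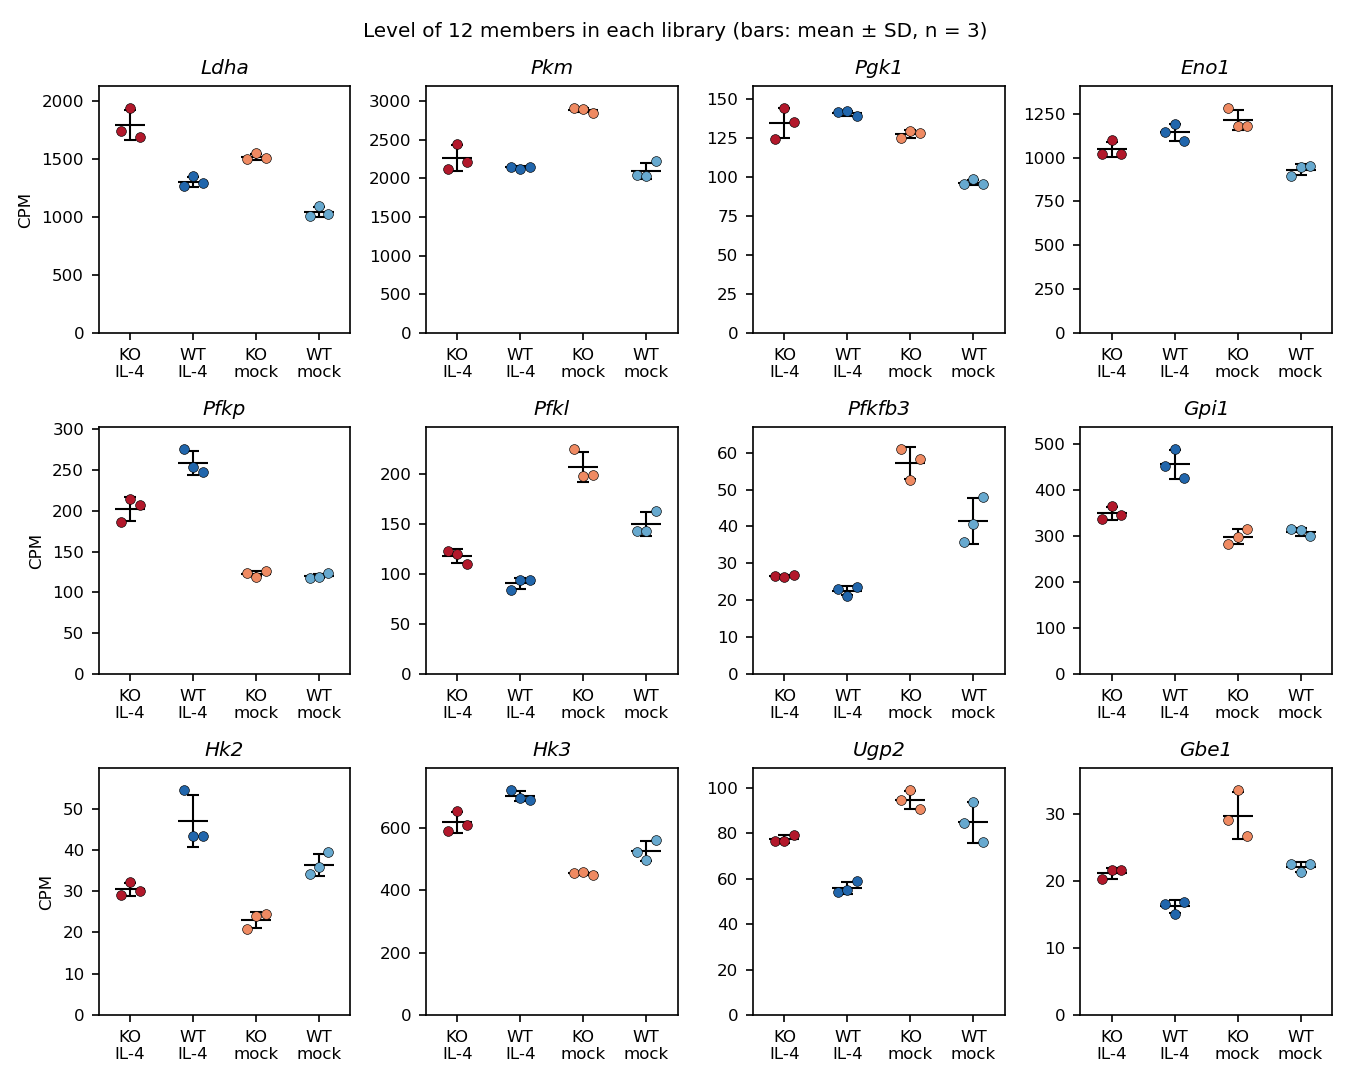
CPM of 12 genes in each library, grouped as KO with IL-4, WT with IL-4, KO mock and WT mock; points are libraries and black bars the mean ± SD of 3. Ldha lies higher in KO than in WT in both conditions and Hk2 lower in both, while Pgk1 is separated in mock (125 to 130 CPM in KO, 95.3 to 98.6 CPM in WT) and overlaps with IL-4.

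With IL-4 Pfkp rose and Pfkl and Pfkfb3 fell in both genotypes. In KO, 7 of 37 entries rose and 14 fell with IL-4 (56.8% called), where 30.3% of all genes were called, 16% higher and 14.2% lower. In WT, 12 of 37 entries rose and 10 fell (59.5% called), where 26.7% of all genes were called, 13.6% higher and 13% lower. In KO the IL-4 libraries were all above the mock libraries in 8 entries and all below in 21, where 23.5% and 24.2% of all genes were so separated (47.7% in all), and in WT in 12 and 12 entries, where 18.6% and 19.7% were (38.3% in all). The median log2 fold change of the entries was -0.16 in KO and -0.02 in WT, against 0.00 and -0.02 over all genes. Without both KO 2 libraries 4 entries rose and 13 fell in KO, and 11 rose and 8 fell in WT. Of all genes 21.4% were then called in KO and 24.1% in WT. In the triose phase and lactate group 1 of 8 genes rose and 3 fell in KO, and 5 rose and none fell in WT. Of the 5 glycogen genes none rose in either genotype, and 3 fell in KO and 4 in WT.

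Pfkp had 186, 215 and 207 CPM with IL-4 against 124, 119 and 126 CPM in mock in KO (log2 fold change 0.72, SE 0.07, adjusted p = 1.65e-06). In WT it had 275, 253 and 247 CPM with IL-4 against 118, 120 and 123 CPM in mock (log2 fold change 1.1, SE 0.07, adjusted p = 1.92e-08). It was the most changed of the 37 entries in WT by p, and IL-4 and mock libraries lay far apart in both genotypes. Pfkm was not called, at -0.25 in KO (adjusted p = 0.167) and -0.08 in WT (adjusted p = 0.71). Pfkl fell, with log2 fold changes of -0.82 (SE 0.08, adjusted p = 2.49e-06) in KO and -0.72 (SE 0.08, adjusted p = 7.79e-06) in WT. Pfkfb3, whose product activates phosphofructokinase, had 26.6, 26.3 and 26.8 CPM with IL-4 against 60.9, 52.5 and 58.2 CPM in mock in KO (log2 fold change -1.11, SE 0.10, adjusted p = 1.17e-06). In WT it had 23.0, 21.2 and 23.5 CPM with IL-4 against 35.7, 40.6 and 48.1 CPM in mock (log2 fold change -0.88, SE 0.10, adjusted p = 1.12e-05). Tigar, which removes that same activator, was not called in either genotype, at 0.10 in KO and 0.08 in WT.

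Slc2a1, Hk2, Hk3 and Gpi1, which act at the start of the pathway, rose with IL-4 in both genotypes. Adpgk, which acts there too, fell in KO by 0.36 on the log2 scale (SE 0.10, adjusted p = 0.011) and was at -0.10 in WT (adjusted p = 0.511), and Hk1 was not called, at -0.16 in KO (adjusted p = 0.0997) and -0.10 in WT (adjusted p = 0.356). Slc2a1 had 131, 150 and 140 CPM with IL-4 against 93.6, 107 and 111 CPM in mock in KO (log2 fold change 0.44, SE 0.08, adjusted p = 0.000689). In WT it had 142, 143 and 133 CPM with IL-4 against 111, 104 and 97.5 CPM in mock (log2 fold change 0.42, SE 0.08, adjusted p = 0.000941). The IL-4 values lay above the mock values in all libraries of both genotypes. Hk3 had 589, 655 and 611 CPM with IL-4 against 457, 458 and 449 CPM in mock in KO, and 721, 696 and 690 CPM with IL-4 against 522, 496 and 561 CPM in mock in WT. Its log2 fold changes were 0.44 (SE 0.06, adjusted p = 9.24e-05) in KO and 0.42 (SE 0.06, adjusted p = 0.000153) in WT. Hk2 rose by 0.40 (SE 0.10) in KO and 0.37 (SE 0.10) in WT, and Gpi1 by 0.23 (SE 0.07) in KO and 0.56 (SE 0.07, adjusted p = 1.82e-05) in WT. The lactate exporter Slc16a3 fell by 0.40 (SE 0.08) in KO and by 0.27 (SE 0.08) in WT on the log2 scale.

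Pgk1 and Eno1 responded differently to IL-4 in KO and WT by the interaction test given below. Pgk1 had 124, 144 and 135 CPM with IL-4 against 125, 130 and 128 CPM in mock in KO (log2 fold change 0.08, SE 0.06, adjusted p = 0.371). In WT it had 141, 142 and 139 CPM with IL-4 against 95.6, 98.6 and 95.3 CPM in mock (log2 fold change 0.55, SE 0.06, adjusted p = 1.07e-05). The KO groups overlapped and the WT groups did not. Eno1 had 1021, 1098 and 1019 CPM with IL-4 against 1280, 1181 and 1180 CPM in mock in KO (log2 fold change -0.21, SE 0.06, adjusted p = 0.0167). In WT it had 1148, 1190 and 1092 CPM with IL-4 against 896, 946 and 950 CPM in mock (log2 fold change 0.30, SE 0.06, adjusted p = 0.00212). Eno1 thus moved in opposite directions, with separate groups in each genotype. Pkm had 2125, 2445 and 2214 CPM with IL-4 against 2904, 2892 and 2847 CPM in mock in KO (log2 fold change -0.35, SE 0.07, adjusted p = 0.00104), and in WT its log2 fold change was 0.03 (SE 0.07, adjusted p = 0.783). Tpi1 had 375, 362 and 338 CPM with IL-4 against 513, 471 and 508 CPM in mock in KO (log2 fold change -0.47, SE 0.07, adjusted p = 0.000221), and in WT it fell by 0.23 on the log2 scale (SE 0.07, adjusted p = 0.0334). Ldha rose in both, by 0.24 (SE 0.06) in KO and 0.32 (SE 0.06) in WT. Aldoc, the aldolase of brain, fell in both, by 0.36 (SE 0.09) in KO and by 0.40 (SE 0.09) in WT on the log2 scale. Bpgm, Gys1, Hk1, Pgls, Rpe, Rpia and Tigar were the 7 genes called in none of the comparisons between KO and WT or between IL-4 and mock without the replicate block, with which Bpgm and Rpia were called in KO (adjusted p = 0.0444 and 0.0368).

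Tkt had 394, 442 and 423 CPM with IL-4 against 343, 346 and 342 CPM in mock in KO (log2 fold change 0.29, SE 0.06, adjusted p = 0.00204). In WT it had 497, 501 and 466 CPM with IL-4 against 339, 337 and 348 CPM in mock (log2 fold change 0.52, SE 0.06, adjusted p = 1.12e-05). Taldo1, which works beside Tkt in the non-oxidative branch, fell in KO by 0.36 on the log2 scale (SE 0.08, adjusted p = 0.00397) and was at -0.07 in WT (adjusted p = 0.575). G6pdx fell in KO by 0.31 on the log2 scale (SE 0.06, adjusted p = 0.000891) and was at -0.12 in WT (adjusted p = 0.15). H6pd, the hexose phosphate dehydrogenase of the endoplasmic reticulum, had 110, 95.9 and 115 CPM with IL-4 against 139, 134 and 168 CPM in mock in WT (log2 fold change -0.46, SE 0.09, adjusted p = 0.00153), and was at -0.21 in KO (adjusted p = 0.106). Among glycogen genes Ugp2 fell by 0.29 (SE 0.08) in KO and by 0.60 (SE 0.08, adjusted p = 3.61e-05) in WT, and Gbe1 by 0.49 (SE 0.09) in KO and by 0.45 (SE 0.09) in WT. Pygl had 115, 113 and 126 CPM with IL-4 against 141, 141 and 154 CPM in mock in WT (log2 fold change -0.30, SE 0.06, adjusted p = 0.00253), and was at -0.11 in KO (adjusted p = 0.208). Gys1 was not called in either genotype.

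Mock and IL-4 libraries with the same number within a genotype were taken as paired, from their titles and their correlated deviations. No label says that they share a culture. With this replicate block 24 entries were called in KO and 22 in WT, where 38.5% and 33.5% of all genes were called. The block added Bpgm (-0.29, adjusted p = 0.0444), H6pd (-0.21, adjusted p = 0.0165) and Rpia (0.81, adjusted p = 0.0368) in KO and changed no call in WT. In KO, leaving out 1 library ended 4 of the 21 calls: Gpi1 without KO mock 1, KO mock 2, KO IL-4 2 or KO IL-4 3 (adjusted p 0.0509 to 0.0972), Eno1 without KO mock 1, KO IL-4 1 or KO IL-4 3 (0.0702 to 0.073), Adpgk without KO IL-4 1 (0.066) and Ldha without KO IL-4 2 (0.067). Without both KO 2 libraries Gpi1, Ldha, Hk2 and Ugp2 were not called in KO (0.0661 to 0.152). In WT, leaving out 1 library ended 7 of the 22 calls: Tpi1 without any of 8 libraries, the exceptions being the 3 KO mock libraries and WT IL-4 2 (0.0554 to 0.18), Slc16a3 without any WT mock library, WT IL-4 1 or WT IL-4 3 (0.0537 to 0.104), Pgm2 without any WT mock library, WT IL-4 1 or KO IL-4 2 (0.0507 to 0.115), Gapdh without WT mock 1, WT mock 3, KO mock 2 or WT IL-4 2 (0.0525 to 0.195), Pgam1 without WT mock 1, WT mock 3 or WT IL-4 2 (0.0527 to 0.073), Hk2 without WT mock 1 or WT IL-4 1 (0.0525 to 0.066) and Aldoa without WT IL-4 2 (0.0747). With the transcript length and GC correction Hk2 in KO was at 0.20 (adjusted p = 0.0534), Eno1 in KO at -0.13 (adjusted p = 0.0494), and in WT Aldoa at 0.13 (adjusted p = 0.0679) and Gapdh at 0.15 (adjusted p = 0.125), and with the correction on deposited length Gpi1 in KO was at 0.15 (adjusted p = 0.141) and Tkt in KO at 0.18 (adjusted p = 0.0447).

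**Figure D4:**
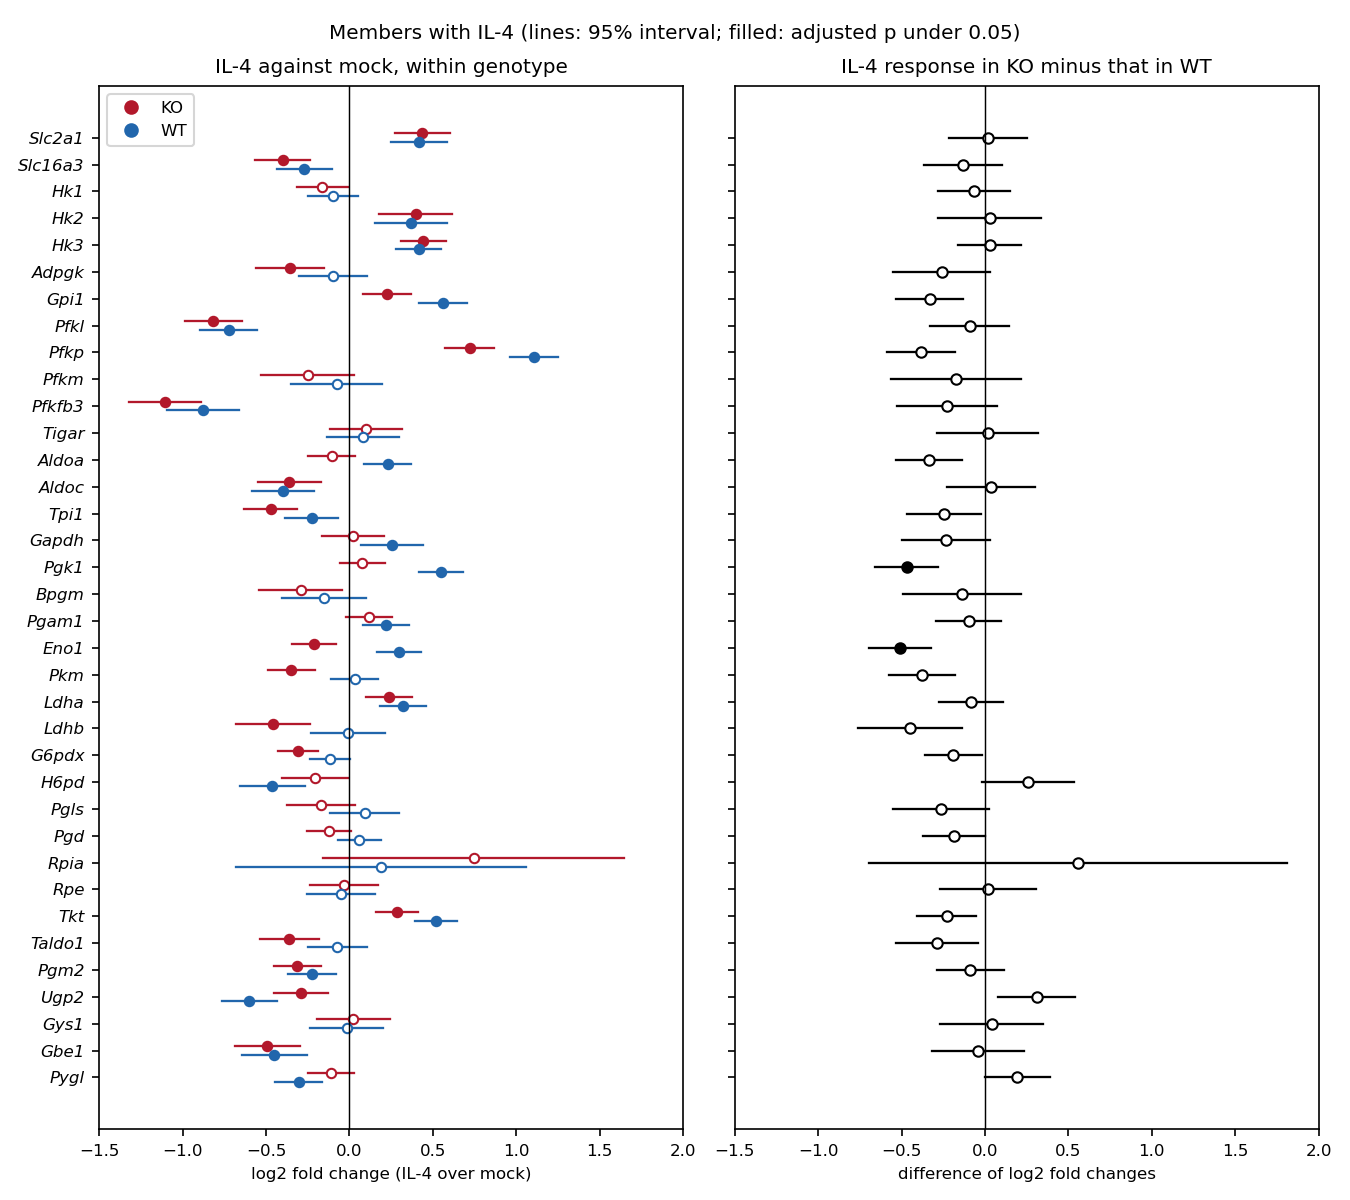
Left, log2 fold change of IL-4 over mock in KO (red, upper of each pair) and WT (blue, lower) for 36 genes; right, the KO value minus the WT value. Lines are 95% intervals and filled points have an adjusted p under 0.05. Pfkp lies at 0.72 in KO and 1.1 in WT and Pfkfb3 at -1.11 in KO and -0.88 in WT; on the right Eno1 (-0.51) and Pgk1 (-0.47) are filled.

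The difference between the genotypes in the response to IL-4 was tested as the log2 fold change in KO minus that in WT. It was called for 2 of 37 entries (5.41%), both lower in KO, where 0.736% of all genes were called, 0.328% higher and 0.408% lower. These were Eno1, at -0.51 (SE 0.09, adjusted p = 0.0234), and Pgk1, at -0.47 (SE 0.09, adjusted p = 0.0354), both enzymes of the triose phase. The difference was below 0 for all 8 genes of the triose phase and lactate group, with a median of -0.31, against a median of -0.13 for all 37 entries and 0.04 over all genes. With the replicate block 8 entries were called, all lower in KO, where 11.6% of all genes were called. They were Eno1, Pgk1, Pkm (-0.38, adjusted p = 0.00853), Ldhb (-0.44, adjusted p = 0.0139), Aldoa (-0.33, adjusted p = 0.014), Pfkp (-0.39, adjusted p = 0.0155), Gpi1 (-0.33, adjusted p = 0.0181) and Taldo1 (-0.28, adjusted p = 0.0303). Ldha, Pfkl, Hk2, Hk3 and Slc2a1 had differences of -0.09 to 0.03 and no call with or without the block. Without both KO 2 libraries neither was called, with Eno1 at -0.58 (adjusted p = 0.0876) and Pgk1 at -0.53 (adjusted p = 0.0967). The Eno1 call ended without WT mock 1, KO mock 1, KO IL-4 1 or KO IL-4 3 (adjusted p 0.0572 to 0.0732) and the Pgk1 call without any of 8 libraries, the exceptions being WT mock 2, WT IL-4 2, WT IL-4 3 and KO IL-4 2 (0.0578 to 0.105). Over all genes this difference was higher for longer transcripts (rho = 0.387). The 8 genes of the triose phase and lactate group had transcripts of 1304 to 2432 bases, all below the median of 2633 over all genes. Under the transcript length and GC correction Pgk1 was at -0.37 (adjusted p = 0.0626, and 0.00321 with the replicate block) and Eno1 at -0.37 (adjusted p = 0.0286, and 0.00474 with the block). Without the block the correction on deposited length kept only 1 of the 2 calls, among 3 entries called, where 0.89% of all genes were called.

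Ratios between isoforms within a library do not depend on library scaling. Pfkp had 1.51 to 1.88 CPM for each CPM of Pfkl in KO with IL-4, 2.62 to 3.26 in WT with IL-4, 0.55 to 0.633 in KO mock and 0.753 to 0.837 in WT mock. Pfkl was thus the more abundant in counts in mock and Pfkp with IL-4, in both genotypes, and the KO range lay below the WT range in both conditions. Ldha had 36.1 to 45.5 CPM for each CPM of Ldhb in KO with IL-4, 20.9 to 23.2 in WT with IL-4, 19.9 to 28.6 in KO mock and 16.2 to 19.2 in WT mock. Hk2 had 0.336 to 0.349 CPM for each CPM of Hk1 in KO with IL-4, 0.44 to 0.51 in WT with IL-4, 0.211 to 0.243 in KO mock and 0.329 to 0.35 in WT mock. These ratios are descriptions of the libraries and were not tested on their own. They were not corrected for the trend with length described above. Pfkp is longer than Pfkl, at 13401 against 6675 bases of deposited length and 4145 against 3730 bases of principal transcript. Hk2 has a principal transcript of 5513 bases and Hk1 of 3745.

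**Figure D5:**
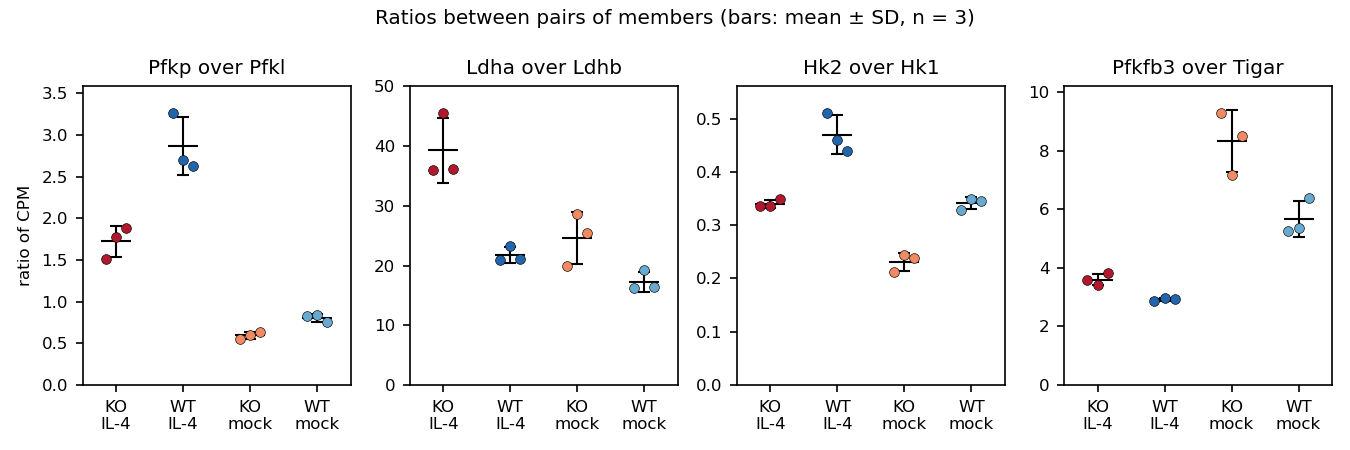
Ratio of CPM between pairs of genes in each library, by group; points are libraries and black bars the mean ± SD of 3. Pfkp over Pfkl averages 1.72 in KO with IL-4, 2.86 in WT with IL-4, 0.594 in KO mock and 0.805 in WT mock, and the KO range lies below the WT range in each condition.

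Of 88 other genes of these pathways and their regulators, 61 were found. Against WT, 14 rose and 15 fell in KO mock (47.5% called, against 34.5% of all genes), and 8 rose and 9 fell in KO with IL-4 (27.9% called, against 18.8% of all genes), with medians of -0.06 and -0.02 on the log2 scale. Regulators were among the genes with the smallest p. Txnip, an inhibitor of glucose uptake, had 72.1, 84.1 and 98.8 CPM in KO mock, against 239, 207 and 202 CPM in WT mock (log2 fold change -1.34, SE 0.11, adjusted p = 3.02e-06). Mlxip, a glucose-sensing transcription factor also known as MondoA that drives Txnip, fell by 0.86 on the log2 scale (SE 0.09, adjusted p = 1.59e-05) in the same comparison. Both were lower in every KO mock library than in any WT mock library. Hif1a, the hypoxia factor that drives many glycolysis genes, had 134, 149 and 133 CPM in KO with IL-4, against 72.7, 50.4 and 76.0 CPM in WT with IL-4 (log2 fold change 1.06, SE 0.12, adjusted p = 5.32e-05). In KO mock it was higher by 0.36 (SE 0.12, adjusted p = 0.0362). Myc, a growth factor-induced transcription factor, had 17.9, 21.9 and 23.5 CPM in KO with IL-4, against 54.1, 54.2 and 48.2 CPM in WT with IL-4 (log2 fold change -1.30, SE 0.13, adjusted p = 2.18e-05). Galm, which converts galactose and glucose anomers, rose by 0.65 in KO mock (adjusted p = 3.49e-05), and Ugdh, which oxidises the UDP-glucose that Ugp2 makes, rose by 0.43 in KO mock (adjusted p = 0.000172) and 0.49 in KO with IL-4 (adjusted p = 8.79e-05).

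With IL-4 against mock 15 of the 61 rose and 11 fell in KO (42.6% called, against 30.3% of all genes), and 13 rose and 12 fell in WT (41% called, against 26.7% of all genes). Prps1, which makes the ribose donor for nucleotides from the product of the pentose phosphate pathway, had 75.0, 61.4 and 62.1 CPM with IL-4 against 10.9, 11.4 and 10.1 CPM in mock in KO, and 35.2, 33.2 and 41.8 CPM with IL-4 against 10.7, 13.4 and 11.9 CPM in mock in WT. Its log2 fold changes were 2.62 (SE 0.12) in KO and 1.61 (SE 0.12) in WT, and their difference of 1.0 (SE 0.16, adjusted p = 0.0171) was called. Slc2a6, a hexose transporter of lysosomes, rose with IL-4 by 2.14 (SE 0.17) in KO and 2.10 (SE 0.17) in WT, and was lower in KO than in WT, with log2 fold changes of -1.12 in mock and -1.08 with IL-4. Myc rose with IL-4 by 1.67 in KO and 1.98 in WT, and Arrdc4 by 0.75 in KO and 0.49 in WT. Pfkfb4, at the same step as Pfkfb3, rose with IL-4 by 0.76 in KO and 0.83 in WT, the opposite direction to Pfkfb3, and was lower in KO than in WT (-0.26 in mock and -0.32 with IL-4). Slc16a1, the lactate transporter MCT1, rose with IL-4 by 0.90 in KO and 0.67 in WT, whereas Slc16a3 fell in both. Vhl, which targets Hif1a protein for breakdown, rose by 0.35 in KO and 0.78 in WT, a difference of -0.42 (adjusted p = 0.0449), and Slc2a9, a urate and hexose transporter, by 0.81 in KO with -0.04 in WT, a difference of 0.84 (adjusted p = 0.0361).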

How the data were processed

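RNA was measured in 12 libraries of bone marrow-derived macrophages, 4 groups of 3, grouped and numbered by sample title. The submitters' processing notes name STAR 2.7.2b, Subread 1.6.5 with featureCounts, bcl2fastq, edgeR and build mm10. No source used here gives the strand setting or the treatment of multi-mapping reads, and values of genes with near-identical pseudogenes (Gapdh, Aldoa, Ldha, Eno1, Pgam1) are therefore uncertain. The deposited table held whole-number counts per gene, not normalized by the authors, with the authors' log2 CPM, log2 fold changes and adjusted p-values. By the authors' deposited table, adjusted p under 0.05, 14 entries were higher and 3 lower in KO mock and 6 higher and 7 lower in KO with IL-4.

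Differential expression used edgeR 4.0.16 (R 4.3.3) on these counts: quasi-likelihood test, TMM, filterByExpr (no gene removed), 1 coefficient per group, 8 residual degrees of freedom, dispersion 0.0115, all tests two-sided. SE and 95% intervals are from that fit. No label says that samples of a group are separate animals or cultures, so p-values reflect sample-to-sample spread that may be technical. Replicates differed by more than sampling noise (chi-square per degree of freedom 10.6 to 84.6). Same-numbered mock and IL-4 libraries of a genotype had deviations that correlated at 0.551, 0.579 and 0.518 in KO and 0.229, 0.491 and 0.406 in WT. Differently numbered mock and IL-4 libraries of a genotype had -0.499 to 0.269. Some libraries that differ in number and genotype correlated as well, such as KO mock 1 with WT IL-4 2 (0.512) and KO IL-4 1 with WT IL-4 2 (0.424). These correlations alone therefore do not show that same-numbered libraries shared a culture. Alternatives were DESeq2 1.42.0, other scalings and filters, a deposited-length correction, libraries left out and the replicate block; a correction on length and GC of the principal GENCODE M21 transcripts (13565 genes matched), also used for levels per kilobase, was chosen after seeing the data. The genes and lists were chosen with earlier results of these data known. Library values were given for up to 6 called entries per direction and comparison with the smallest adjusted p, and up to 4 other pathway genes per comparison were named, with those at the same step as a chosen gene. Promoters came from RefSeq (GRCm38.p6), with all 36 symbols matched to 50 windows.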

Additional observations from a re-analysis of the deposited data

Results flagged for a closer look

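The response to IL-4 differed between KO and WT for Eno1, with a difference of -0.51 on the log2 scale, and for Pgk1, with a difference of -0.47, by the interaction test of the edgeR fit (adjusted p = 0.0234 and 0.0354). Eno1 fell in KO and rose in WT, and Pgk1 rose in WT with no call in KO. In each of the 4 groups these genes were measured in 3 libraries. Both calls depended on single libraries: leaving out any 1 of 4 ended the Eno1 call and any 1 of 8 the Pgk1 call. Without both KO 2 libraries neither was called (adjusted p = 0.0876 for Eno1 and 0.0967 for Pgk1). Without the replicate block Pgk1 was also not called under the transcript length and GC correction. The deposited-length correction called 3 entries, only 1 of which was one of these 2 genes. With library size alone 1 of the 2 calls was kept.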

How the results depend on the processing

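No fold change of a called entry changed sign under any of the alternatives run. The number of called entries stayed within 1.5 times of that reported in KO against WT in mock and in both IL-4 comparisons. Leaving out 1 library gave 13 to 19 calls for KO against WT in mock, 9 to 15 for KO against WT with IL-4, 19 to 22 for IL-4 in KO, 16 to 22 for IL-4 in WT and 0 to 2 for the difference between the genotypes. Of all genes 24% to 38%, 12.1% to 19.6%, 22.3% to 33.9% and 21.5% to 27.1% were then called, in the same order up to IL-4 in WT. KO against WT with IL-4 gave 9 calls without WT IL-4 1. The difference between the genotypes gave 1 call with library size alone, 7 with DESeq2, 0 without both KO 2 libraries, 8 with the replicate block, 11 with the replicate block and the deposited-length correction, and 7 with the replicate block and the transcript length and GC correction; the cause was not tested. Over all genes it gave 101 calls (45 higher) as reported, 65 (41 higher) with library size alone, 751 (324 higher) with DESeq2, 1596 (891 higher) with the replicate block, 930 (415 higher) and 1061 (491 higher) with the block and those corrections, 0 without both KO 2 libraries and 0 to 102 without 1 library. KO against WT with IL-4 gave 2579 calls over all genes as reported, 1658 without WT IL-4 1 and 1596 without both KO 2 libraries. KO against WT in mock gave 4731 calls (2147 higher), and 4531 (1572 higher) with library size alone. The numbers of KO and WT libraries do not pair the genotypes, and a block on them gave 17 calls in mock and 14 with IL-4, where Pgm2 was lost (adjusted p = 0.0622) and Taldo1 gained (0.0458). With that block 33.6% of all genes were called in mock and 18.2% with IL-4. With 3 libraries a group, a small difference of the rare Rpia was not detectable at this depth.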
